A study of Mus musculus with 28 samples.

Results

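Gfap, Vim, Nes and Synm were followed across every group of 3 RNA-Seq experiments on mouse cerebral cortex. These 4 genes encode intermediate filament proteins and are grouped here as glial. The genes were chosen by name, for the proteins they encode, and with earlier results of these data known. All 4 were found among the 53342 gene identifiers of each count table. Conditional knockout mice (cKO) carried mGFAP-Cre, a driver that uses the mouse GFAP promoter, together with α2-Na/K ATPase loxP/loxP alleles. Control mice (Ctrl) were their sex-matched littermates, α2-Na/K ATPase loxP/loxP or loxP/+, whose genotypes are given without the driver. All strains were on the C57BL/6J background, which the groups shared. Both genotypes carried loxP alleles, but loxP/+ Ctrl mice had fewer of them than cKO mice. Bulk RNA-Seq was made from the cortex of 4 Ctrl and 4 cKO mice at postnatal day 17 (P17) and of 4 Ctrl and 4 cKO mice at P24, with 1 mouse per library. In TRAP-Seq at P24, EGFP fused to the ribosomal protein L10a was expressed under control of the driver, and RNA on tagged ribosomes was pulled down. An Input library, from a part of the cortical supernatant taken before the pull-down, and an immunoprecipitated (IP) library were made from each of 3 Ctrl and 3 cKO mice. The tag depends on Cre, so that the Ctrl mice of TRAP-Seq are inferred to carry the driver as well, unlike the Ctrl mice of bulk RNA-Seq.

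Intermediate filaments are rope-like polymers of the cytoskeleton that give cells mechanical strength. Mature astrocytes build them mainly from GFAP, with vimentin as a partner. Nestin and vimentin are typical of radial glia, progenitors and immature astrocytes, and nestin needs vimentin to polymerise. Synemin is a large protein that is built into vimentin or desmin filaments and does not form filaments by itself. A rise of GFAP and vimentin, with a return of nestin and synemin in some lesions, is a well-known feature of reactive astrocytes. Vimentin is also made by endothelial, mural, meningeal and microglial cells, and nestin by endothelial cells, so that whole cortex does not read out astrocytes alone.

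Gfap (ENSMUSG00000020932) lies on the minus strand of chromosome 11 of GRCm38, the mm10 build, from 102887336 to 102900912. Vim (ENSMUSG00000026728) lies on the plus strand of chromosome 2 from 13573927 to 13582826, and Nes (ENSMUSG00000004891) on the plus strand of chromosome 3 from 87971078 to 87980451. Synm (ENSMUSG00000030554) lies on the minus strand of chromosome 7 from 67730160 to 67759742, where exons of Ttc23 and Gm45102 on the opposite strand overlap exons of Synm. The long noncoding gene Gm26668 spans Gfap on the opposite strand. Whether reads were counted by strand is not given in the sources used here, so that reads of Synm and of these overlapping exons cannot be told apart. The gene next to Gfap is Fam187a (ENSMUSG00000075510), on the plus strand from 102885169 to 102886731 and 604 bases from Gfap.

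The proximal promoter of Gfap is shown because Gfap is the member whose promoter also names the driver. The window is taken from RefSeq on GRCm38.p6, from 250 bases before the annotated start, at 102897200, to 7 bases after it, chr11:102897194-102897450 on the minus strand, 5′ to 3′. Capitals mark the single match to TTCNNNGAA, the palindromic spacing that STAT factors recognise.

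Gfap promoter: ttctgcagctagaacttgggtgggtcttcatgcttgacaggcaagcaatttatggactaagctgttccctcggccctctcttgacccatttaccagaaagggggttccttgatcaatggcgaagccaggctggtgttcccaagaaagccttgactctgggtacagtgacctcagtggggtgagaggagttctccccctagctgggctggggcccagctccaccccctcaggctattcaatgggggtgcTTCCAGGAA

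The pattern was searched on both strands in the RefSeq windows of 300 bases, 250 before and 50 after the annotated start, which were found for all 4 genes. It was found in the window of Gfap and in none of the windows of Vim, Nes and Synm. Of all 32851 windows, 2726 held it, or 8.3%. A match is a description of the letters and not a measured binding site.

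The bulk libraries held 8855488 to 14575306 counts on genes and the TRAP libraries 18433087 to 27242445. Levels are given as CPM, the count of a gene scaled to a common library total, and a floor of 3 counts was 0.206 to 0.339 CPM in bulk and 0.110 to 0.163 CPM in TRAP libraries (counting error only). 2 libraries stood apart from their group over all genes. By chi-square over its degrees of freedom, P24 bulk cKO replicate 1 differed from its group mates by 11.4 to 13.99, and they from each other by 3.2 to 4.77. TRAP Input cKO replicate 1 differed from its group mates by 75.1 and 78.6, and they from each other by 8.09. CPM were scaled with TMM factors over the 16 bulk or the 12 TRAP libraries, which are 2 separate scales. A gene is called upregulated or downregulated where the quasi-likelihood test of edgeR, adjusted by Benjamini–Hochberg across the genes of that comparison, gave p under 0.05. All 4 genes passed the filter on low counts in every comparison. In cortex, fewer cells of a type and less RNA per cell cannot be told apart.

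Gfap was upregulated at both ages. In bulk cortex at P17 the Ctrl mice had 119, 131, 138 and 137 CPM and the cKO mice 236, 271, 312 and 250.0 CPM. The groups did not overlap, as was so with cKO higher for 1.7% of the genes tested, and every cKO mouse was between 1.80 and 2.37 times the Ctrl mean. The log2 fold change was 1.03 ± 0.08 (SE, adjusted p = 8.58e-05). Gfap was the only member of the 4 called at this age, where 0.066% of the 21201 genes tested were upregulated. At P24 the Ctrl mice had 126, 149, 145 and 154 CPM and the cKO mice 633, 963, 871 and 784 CPM, between 4.42 and 6.72 times the Ctrl mean. The groups were again apart, as was so with cKO higher for 4.02% of the genes tested, with a log2 fold change of 2.51 ± 0.11 (SE, adjusted p = 2.18e-07). The exact two-sided permutation test gave p = 0.0286 at each age, the smallest that 4 mice against 4 allow.

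Fam187a differed between the genotypes in bulk cortex. Its bulk libraries held between 0 and 4 counts in Ctrl mice and between 41 and 124 counts in cKO mice, which put the cKO mice at 5.60 ± 0.974 CPM at P17 and 8.07 ± 0.757 CPM at P24 (SD, n = 4 each). The Ctrl mice of bulk RNA-Seq lack the driver in their stated genotypes. In TRAP-Seq, where Ctrl mice too are inferred to have it, Fam187a was at 1.23 ± 0.365 and 1.39 ± 0.106 CPM in Input and at 1.63 ± 0.703 and 2.90 ± 0.323 CPM in IP of Ctrl and cKO mice (SD, n = 3 each), and neither difference was called (adjusted p = 0.0620 in IP). The IP difference was called in 5 of 8 other settings, DESeq2 among them (adjusted p = 0.0416). The part of the driver in the levels of Gfap and Fam187a was not tested.

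Vim, which encodes vimentin, was upregulated at P24. At P17 the Ctrl mice had 26.5, 35.4, 35.6 and 36.8 CPM and the cKO mice 36.6, 47.2, 53.6 and 40.9 CPM, so that the lowest cKO mouse was within the Ctrl range. The log2 fold change was 0.42 ± 0.12 (SE, adjusted p = 0.658). Same-numbered Ctrl and cKO libraries deviated together at P17. A fit that took the replicate number as a block gave 0.41 on the log2 scale (edgeR, adjusted p = 0.00344), so that this call depends on the pairing. The block raised the number of all genes called at P17 from 20 to 109. At P24 the Ctrl mice had 35.0, 25.0, 27.5 and 33.5 CPM and the cKO mice 81.7, 451, 334 and 261 CPM. All cKO mice were above all Ctrl mice, but cKO replicate 1 stood at 2.70 times the Ctrl mean and the others at between 8.64 and 14.9 times. The log2 fold change was 3.22 ± 0.39 (SE, adjusted p = 0.0012), and 3.53 without cKO replicate 1 (adjusted p = 6.62e-08), a fit in which 950 genes were called in place of 388. With Gfap, 2 of the 4 members were upregulated at P24, where 1.26% of the 22495 genes tested were upregulated and 0.462% downregulated.

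Nes, which encodes nestin, was low in every group and was not called in any comparison. At P17 it had 11.8, 10.2, 7.49 and 11.3 CPM in Ctrl mice and 14.8, 8.93, 12.9 and 12.9 CPM in cKO mice, and the groups overlapped. At P24 the Ctrl mice lay close together, at 8.09, 7.30, 7.19 and 7.42 CPM. The cKO mice were at 6.09, 16.9, 15.1 and 11.3 CPM, so that cKO replicate 1 was below every Ctrl mouse and the others above every Ctrl mouse. The log2 fold change was 0.71 ± 0.24 (SE, adjusted p = 0.209). Without cKO replicate 1 it was 0.94 with an adjusted p of 9.48e-04 (edgeR), so that the lack of a call at P24 rests on 1 library.

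Synm was not called at either age. At P17 it had 33.8, 34.0, 36.6 and 32.4 CPM in Ctrl mice and 39.5, 33.1, 37.1 and 29.0 CPM in cKO mice, with a log2 fold change of 0.02 ± 0.09 (SE, adjusted p = 1.0). At P24 the Ctrl mice had 34.7, 34.8, 34.7 and 31.4 CPM and the cKO mice 31.8, 33.1, 33.2 and 30.3 CPM. The P24 groups overlapped, with a log2 fold change of −0.08 ± 0.05 (SE, adjusted p = 0.611). Over the 16 bulk mice Synm lay between 29.0 and 39.5 CPM.

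**Figure D1:**
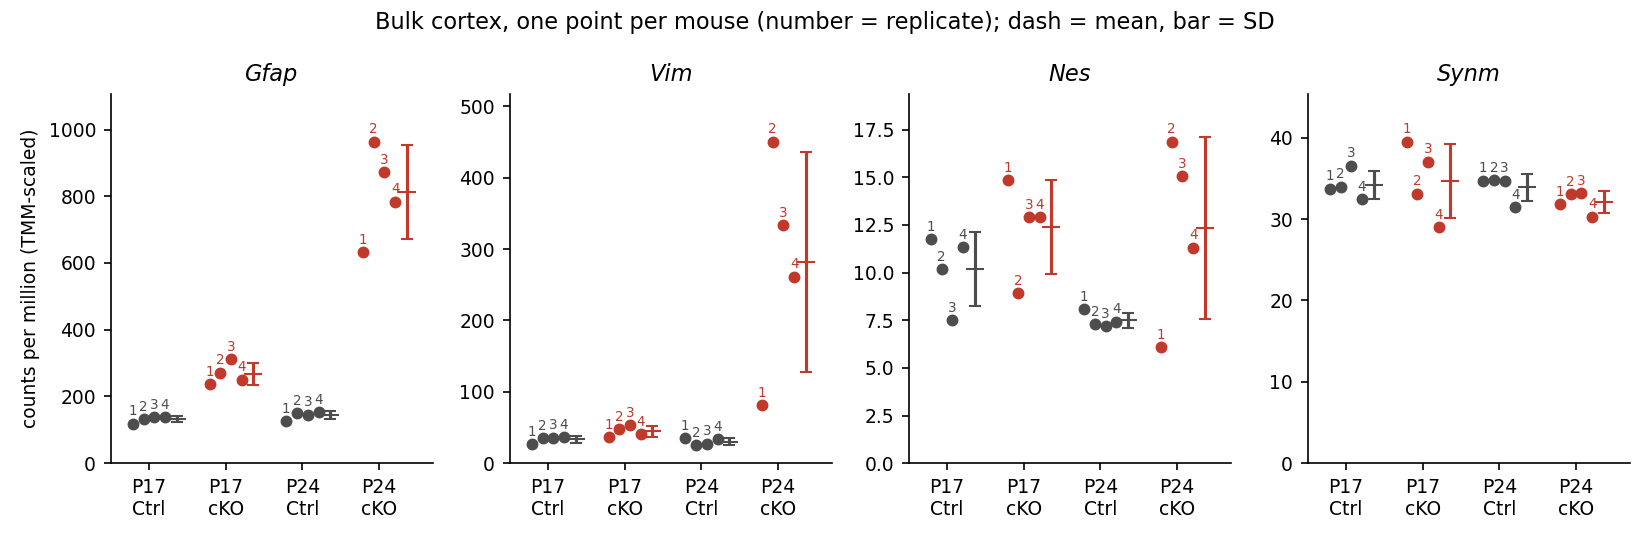
TMM-scaled CPM (linear axes from 0) of each gene in each bulk cortex library, with Ctrl in grey and cKO in red, replicate numbers above the points, and the mean and SD beside them. Gfap separates the genotypes at both ages, Vim clearly at P24, where cKO replicate 1 at 81.7 CPM lies far below the others, and Synm lies between 29.0 and 39.5 CPM in all 16 libraries.

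The timing was tested as an interaction of age and genotype over the 16 bulk libraries. The change was larger at P24 by 1.48 ± 0.15 on the log2 scale for Gfap (SE, adjusted p = 1.29e-04) and by 2.81 ± 0.45 for Vim (SE, adjusted p = 0.0200), so that 2 of the 4 members passed where 0.0342% of the 23395 genes tested had a larger change at P24. For Nes and Synm the differences were 0.43 ± 0.33 and −0.10 ± 0.11 (SE), with adjusted p of 0.921 and 0.973. The Gfap call held in every fit without 1 of the 16 libraries. The Vim call was lost in 9 of these 16 fits, those without Ctrl replicates 2, 3 or 4 or cKO replicates 1, 2 or 4 at P17, or without Ctrl replicates 2 or 3 or cKO replicate 3 at P24, with an adjusted p of at most 0.0752. In level, Ctrl mice of P17 and P24 overlapped for each of the 4 genes, and the smallest exact two-sided permutation p was 0.0571, for Nes. Ordered by level, Gfap rose from Ctrl of both ages, which did not differ beyond their spread, to cKO at P17 and to cKO at P24, and each of these upper steps had no overlap (exact permutation p = 0.0286). For Vim only the step to cKO at P24 had no overlap, and for Nes and Synm no neighbouring groups were apart. The order was set by these same values, and 0.0286 is the smallest p that 4 mice against 4 allow. The steps without overlap compare mice of different ages, whose counts are in different tables. The share of all genes apart at such steps was not determined.

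**Figure D2:**
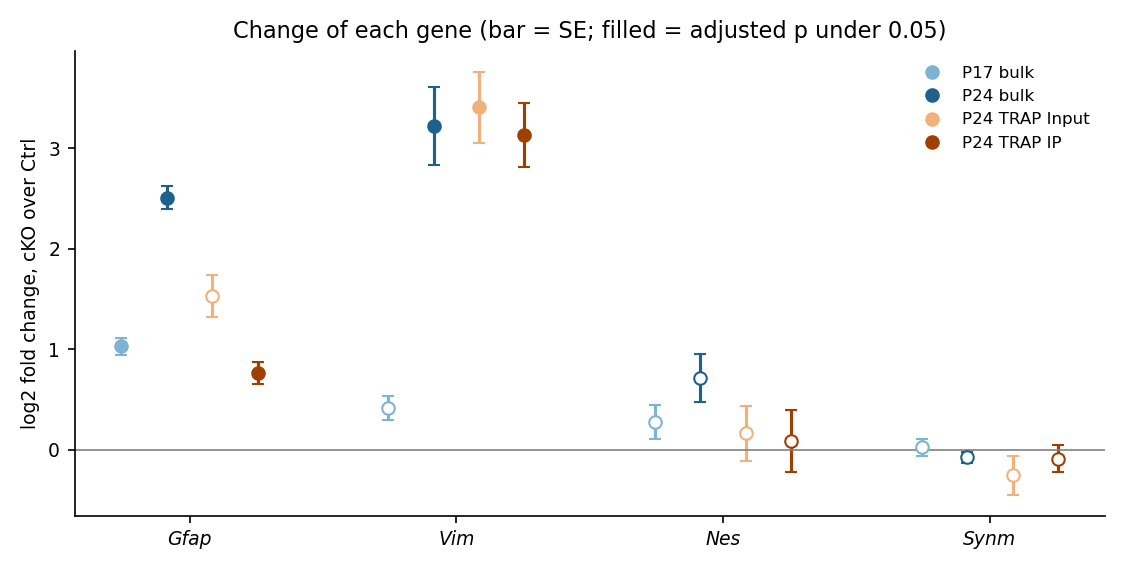
Log2 fold change of cKO over Ctrl for each gene in P17 bulk, P24 bulk, P24 TRAP Input and P24 TRAP IP (edgeR; bars are SE; filled points have an adjusted p under 0.05). Gfap is at 2.51 in P24 bulk and 0.76 in IP, Vim lies between 3.13 and 3.41 in the P24 comparisons, and Nes and Synm have open points throughout.

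In TRAP-Seq of Ctrl mice, Gfap and Vim were enriched on tagged ribosomes, Synm was depleted and Nes was neither. The grouping of Synm and Nes as glial thus rests on their proteins and not on these values. Gfap went from 129, 154 and 115 CPM in Input to 1612, 1899 and 1574 CPM in IP of the same mice, or 12.9 ± 0.77 times (SD, n = 3), with a log2 fold change of 3.66 ± 0.14 (SE, adjusted p = 2.03e-09). Vim went from 13.3, 13.6 and 10.8 CPM to 124, 121 and 127 CPM, or 9.96 ± 1.52 times (SD, n = 3), with a log2 fold change of 3.29 ± 0.12 (SE, adjusted p = 1.40e-09). Synm fell from 29.5, 24.8 and 30.3 CPM to 10.2, 9.29 and 10.8 CPM, 0.359 ± 0.015 of its Input level (SD, n = 3), with a log2 fold change of −1.49 ± 0.12 (SE, adjusted p = 3.58e-07). Nes was near 2 CPM in both fractions, at 2.41, 2.34 and 1.70 CPM in Input and 1.47, 2.53 and 2.69 CPM in IP, and its 3 mice moved in different directions (adjusted p = 0.902). These calls stand against a background in which 35.3% of the 24385 genes tested were higher and 35.7% lower in IP. All 10 astrocyte markers were called higher in IP, with a median log2 fold change of 3.51. All 6 microglial and all 6 endothelial markers were called lower, with medians of −1.51 and −1.27. The summed endothelial level was low, with means of 6.45 CPM in Input and 2.87 CPM in IP. Of the 6 neuronal and the 6 oligodendrocyte markers, 5 each were called lower, with medians of −1.73 and −0.87. Of the 5 fibroblast and meningeal markers tested, 4 were called lower, with a median of −1.02. Of the 4 mural markers tested, 2 were called higher and 1 lower, with a median of 0.43. Of the 6 progenitor and cycling markers, 4 were called higher and 0 lower, with a median of 1.13. None of these markers was absent from a fraction, and the summed level of the 6 neuronal markers was still between 2097 and 2565 CPM in IP.

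In cKO mice Gfap and Vim were again called higher and Synm lower in IP. Gfap was 8.40, 6.39 and 8.20 times higher in IP than in Input of the 3 cKO mice, where the Ctrl mice were between 12.3 and 13.7. The share of all genes that separate the genotypes in this ratio was not determined. The log2 fold change of Gfap in cKO mice was 2.88 ± 0.23 (SE, adjusted p = 2.16e-05). Vim was 6.06, 8.06 and 10.1 times higher, which overlapped the Ctrl range of 8.87 to 11.7, with a log2 fold change of 3.00 ± 0.49 (SE, adjusted p = 9.17e-04). Synm was at 0.570, 0.330 and 0.351 of its Input level (log2 fold change −1.34 ± 0.21, SE, adjusted p = 6.63e-04), and Nes at 0.935, 0.667 and 1.39 of its own (adjusted p = 0.906). Here 27.8% of the 24011 genes tested were higher and 28.5% lower in IP. The difference of the IP change from the Input change was tested as an interaction of fraction and genotype, in which 0.0388% of the 25768 genes tested had a larger change in IP and 0.0194% a smaller one. None of the 4 members passed in the quasi-likelihood test or by DESeq2, and Gfap alone had an unadjusted p under 0.05. The values were −0.77 ± 0.25 for Gfap (SE, adjusted p = 0.333) and −0.28 ± 0.51 for Vim (SE, adjusted p = 0.946). The 10 astrocyte markers had a median difference of −0.81 and none of them passed.

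**Figure D3:**
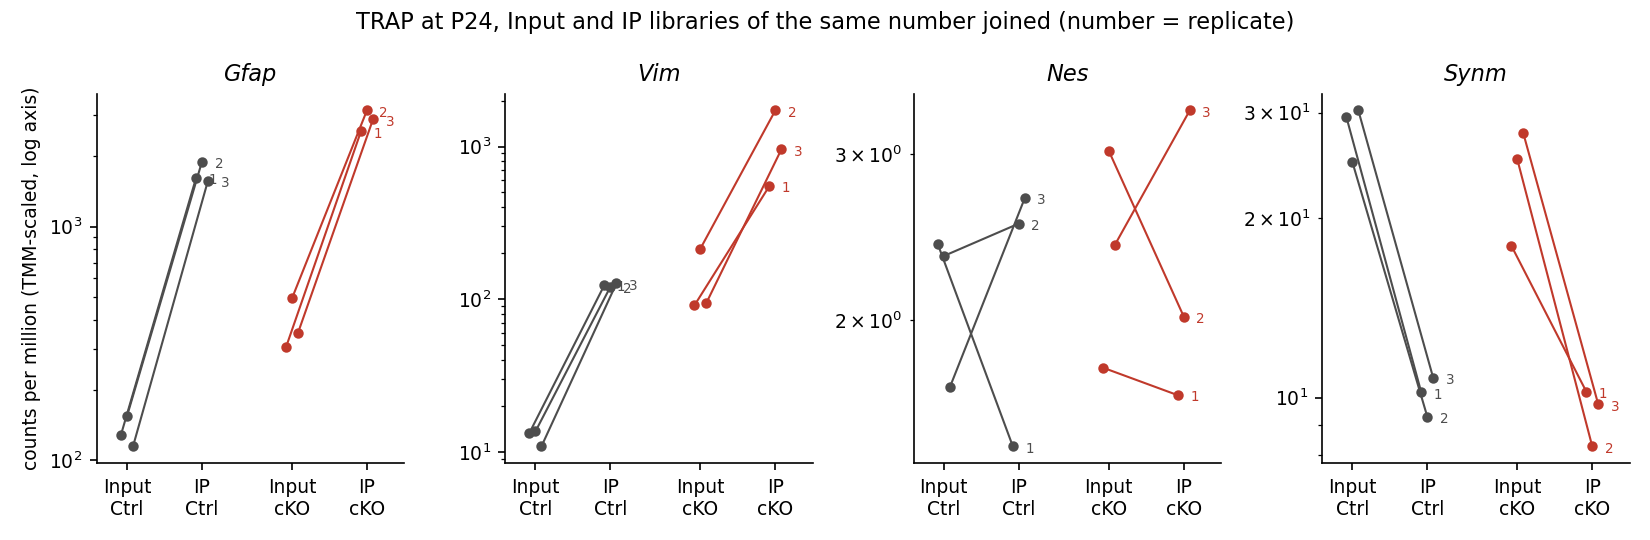
TMM-scaled CPM (log axes, a separate range for each gene) in TRAP libraries at P24, with a line from the Input to the IP library of each mouse, Ctrl in grey and cKO in red. Gfap and Vim rise in every mouse and start from a higher Input level in cKO mice, Synm falls in every mouse, and the Nes lines cross near 2 CPM.

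In IP libraries, cKO against Ctrl, Vim was again the member with the larger change. Its Ctrl mice had 124, 121 and 127 CPM and its cKO mice 551, 1727 and 958 CPM, a log2 fold change of 3.13 ± 0.32 (SE, adjusted p = 1.80e-04). Gfap went from 1612, 1899 and 1574 CPM to 2558, 3147 and 2875 CPM, a log2 fold change of 0.76 ± 0.11 (SE, adjusted p = 0.0014). The cKO and Ctrl mice did not overlap for either gene, as for 19.0% of the genes tested, although the exact permutation test on 3 mice against 3 cannot give a two-sided p under 0.1. Thus 2 of the 4 members were upregulated, where 11.6% of the 23864 genes tested were upregulated and 8.42% downregulated. Nes was at 1.66, 2.02 and 3.34 CPM in cKO IP (log2 fold change 0.09 ± 0.31, SE, adjusted p = 0.880), and Synm at 10.2, 8.29 and 9.74 CPM (−0.09 ± 0.13, SE, adjusted p = 0.690). Scaling by library size alone moved the median log2 fold change of all genes to −0.13 and the calls from 2772 higher and 2010 lower to 2002 and 3529. Under that scaling Vim and Gfap were at 3.00 and 0.65, Nes at −0.03 and Synm at −0.20, with no change of a call.

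Input libraries came from the cortical supernatant of the same mice. In them Vim went from 13.3, 13.6 and 10.8 CPM in Ctrl to 90.9, 214 and 94.6 CPM in cKO mice, with a log2 fold change of 3.41 ± 0.35 (SE, adjusted p = 0.0220). Gfap went from 129, 154 and 115 CPM to 304, 493 and 350.5 CPM, a log2 fold change of 1.53 ± 0.21, and missed the threshold with an adjusted p of 0.0504 (edgeR). The groups were apart for both genes, as with cKO higher for 6.59% of the genes tested. Vim was the 1 member called, where 0.0923% of the 23828 genes tested were upregulated, and its call was lost without any 1 of the 3 Ctrl mice (adjusted p between 0.124 and 0.277), while Gfap was called without cKO replicate 1, the library that stood apart (adjusted p = 0.00357). Without that library Vim was at 3.62 (adjusted p = 0.00153). Nes was at 1.78, 3.02 and 2.40 CPM (log2 fold change 0.16 ± 0.27, SE) and Synm at 18.0, 25.1 and 27.7 CPM (−0.26 ± 0.19, SE) in cKO Input, neither called. The IP and Input comparisons come from the same mice and each shares its Ctrl libraries with a comparison of IP and Input.

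The balance of Gfap and Vim was read as the Vim count over the Gfap count within each library, which needs no scaling between libraries. At P17 only Gfap of this pair was called upregulated, and the part of the driver in its level was not tested. At P17 it fell, from 0.223, 0.270, 0.258 and 0.269 in Ctrl mice to 0.155, 0.174, 0.172 and 0.164 in cKO mice, with no overlap (exact two-sided permutation test, p = 0.0286, the smallest 4 mice against 4 allow). With the mice paired by replicate number, exact sign flips gave p = 0.125, the smallest 4 pairs allow. At P24 the Ctrl mice were at 0.279, 0.167, 0.190 and 0.218 and the cKO mice at 0.129, 0.468, 0.383 and 0.333. Thus 3 of the 4 cKO mice were above every Ctrl mouse and cKO replicate 1 was below every Ctrl mouse, and the difference did not pass (exact permutation p = 0.314). In IP the ratio was 0.0768, 0.0635 and 0.0806 in Ctrl and 0.216, 0.549 and 0.333 in cKO mice, and in Input 0.103, 0.0880 and 0.0947 in Ctrl and 0.299, 0.435 and 0.270 in cKO mice. Neither pair of groups overlapped, and the exact permutation p of 0.1 is the smallest that 3 mice against 3 allow.

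**Figure D4:**
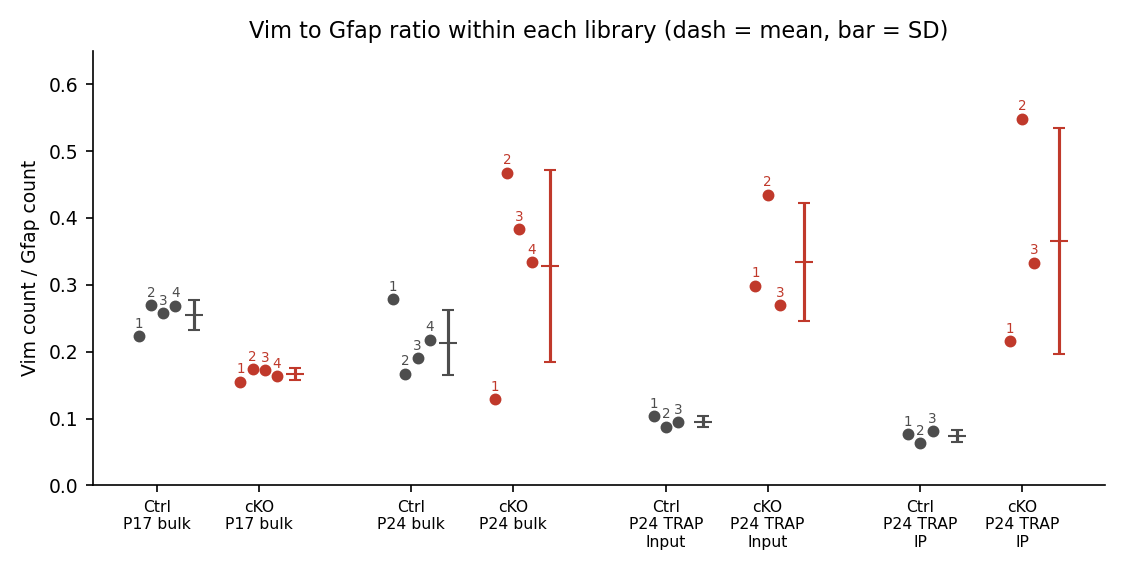
Vim count divided by Gfap count in each library (linear axis from 0; replicate numbers above the points; mean and SD beside them; Ctrl grey, cKO red). The ratio is lower in all 4 cKO mice at P17, spreads from 0.129 to 0.468 in cKO mice at P24, and is higher in all 3 cKO mice in TRAP Input and IP.

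Levels of different genes were compared per kilobase of exon, which assumes even coverage along the exons, and that was not tested in these oligo-dT primed or selected libraries. By this measure Gfap made up 70.6% ± 0.47 of the summed level of the 4 genes in P17 Ctrl cortex, Vim 15.99% ± 1.33, Synm 9.80% ± 0.77 and Nes 3.63% ± 0.86 (SD, n = 4). The sum was 44.1 ± 2.97 CPM per kb at P17 and 45.8 ± 2.39 CPM per kb at P24 in Ctrl mice (SD, n = 4 each). In cKO mice it was 79.0 ± 9.31 CPM per kb at P17 and 258 ± 66.7 CPM per kb at P24 (SD, n = 4 each). The cKO cortex at P17 had a Gfap share of 80.1% ± 0.84 and a Vim share of 11.8% ± 0.72 (SD, n = 4). At P24 the Ctrl shares were 74.1% ± 3.11 for Gfap, 13.97% ± 2.54 for Vim, 9.37% ± 0.87 for Synm and 2.56% ± 0.26 for Nes (SD, n = 4). The cKO shares at P24 were 76.1% ± 7.76 for Gfap and 21.5% ± 8.10 for Vim (SD, n = 4), with Synm at 1.65% ± 0.47 and Nes at 0.722% ± 0.124 of the larger sum. The Vim share of cKO replicate 1 was 10.0%, below the P24 Ctrl range of 11.4% to 17.3%. In cKO replicates 2, 3 and 4 it was above that range, between 22.4% and 28.8%. On tagged ribosomes Gfap and Vim were nearly the whole sum, with Gfap at 93.5% ± 0.75 and Vim at 6.12% ± 0.70 in Ctrl, and at 76.0% ± 8.35 and 23.9% ± 8.40 in cKO mice (SD, n = 3 each).

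**Figure D5:**
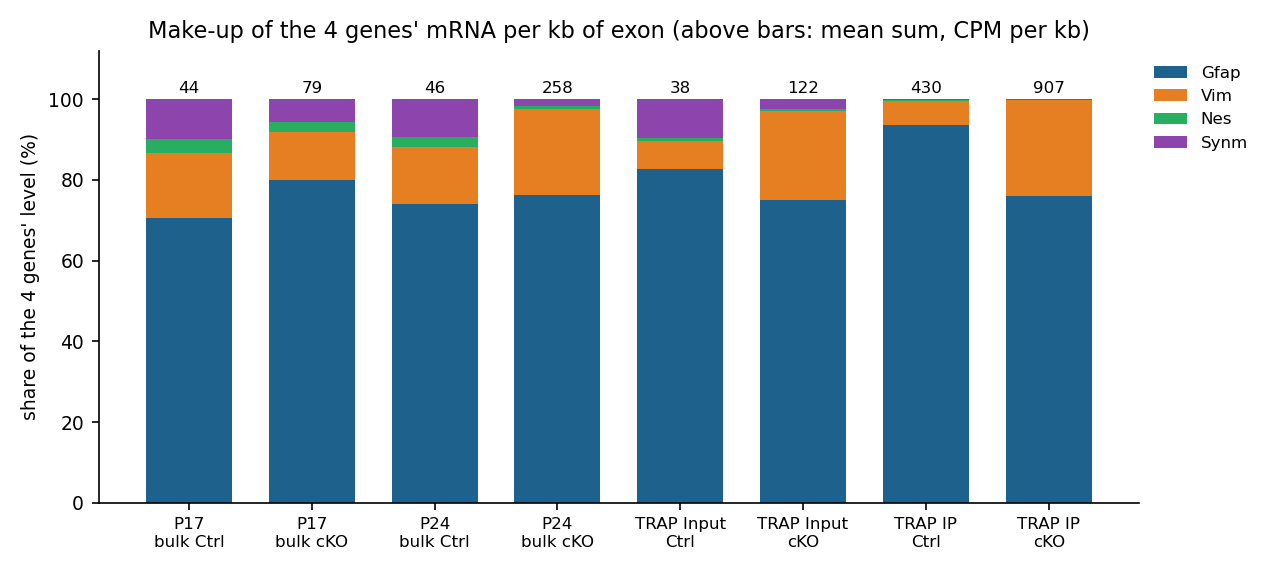
Mean share (%) of each gene in the summed level per kilobase of exon of the 4 genes, for the 8 groups, with the mean sum in CPM per kb above each bar. The mean Vim share is largest in the P24 cKO groups, although P24 bulk cKO replicate 1 was at 10.0%, and Synm and Nes are hardly visible in IP.

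Among the 4 members the cKO mice at P24 differed most in Vim. In P24 bulk cKO the coefficient of variation of Vim was 54.8%, against 15.8% in Ctrl mice, 16.7% in P17 cKO mice and a median of 9.24% over all genes with at least 1 CPM in P24 cKO mice. In the same mice Nes had 38.6%, Gfap 17.3% and Synm 4.21%, where counting error alone would give 1.62% for Vim, 7.72% for Nes and 4.74% for Synm. Without cKO replicate 1 the value of Vim was 27.4%. The order of the 4 cKO mice from lowest to highest, replicates 1, 4, 3 and 2, was the same for Gfap, Vim and Nes, and was not that of Synm. In P17 cKO mice Gfap and Vim shared the order 1, 4, 2 and 3, and Nes did not. In TRAP cKO mice the order 1, 3 and 2 held for Gfap and Vim in Input and in IP, and Vim varied by 52.7% in Input, against 11.95% in Ctrl Input and a median of 19.3% over all genes in cKO Input. In IP it varied by 55.4%, against 2.56% in Ctrl IP and a median of 11.5% over all genes in cKO IP. Mice of different experiments are different animals, so that their numbers do not correspond. The depth of P24 cKO replicate 1, 14575306 counts, was the highest of the bulk libraries. The summed astrocyte markers were at 3759 CPM in cKO replicate 1 and between 3409 and 3459 CPM in the other cKO mice, and the summed microglial markers at 259.8 CPM against 286 to 320.5 CPM. In replicate 1 the endothelial, mural, fibroblast and meningeal, and oligodendrocyte sums, 98.2, 141.5, 87.3 and 4374 CPM, were also the lowest of the P24 cKO mice. The neuronal and the progenitor and cycling sums of replicate 1, 4758 and 62.5 CPM, were the highest. The part of these values in the Vim level was not tested.

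Markers of other cells that make vimentin or nestin were read beside these changes. In P24 bulk none of the 6 endothelial, 6 mural, 6 microglial and 6 fibroblast and meningeal markers was called, nor any of the 5 progenitor and cycling markers tested. The summed endothelial level was between 109 and 119.8 CPM in Ctrl and between 98.2 and 118 CPM in cKO mice. The microglial sum was between 268 and 297 CPM in Ctrl and between 259.8 and 320.5 CPM in cKO mice. Of the 10 astrocyte markers, 3 were upregulated and 3 downregulated, beside 1.26% and 0.462% of all genes tested, with a sum between 3822 and 4444 CPM in Ctrl and between 3409 and 3759 CPM in cKO mice. In P17 bulk none of the markers of any list was called. In IP libraries 3 of the 10 astrocyte markers and 5 of the 6 progenitor and cycling markers were downregulated, beside 8.42% of all genes tested, the sum of the latter being between 89.2 and 116 CPM in Ctrl and between 48.0 and 62.7 CPM in cKO mice. Of the mural markers 4 were tested in IP and 1 was upregulated, beside 11.6% of all genes. In Input the astrocyte sum was between 893 and 1021 CPM in Ctrl and between 1264 and 1560.2 CPM in cKO mice, without overlap, and 1 of the 10 markers was upregulated beside 0.0923% of all genes. The progenitor and cycling sum in Input was between 42.8 and 56.6 CPM in Ctrl and between 33.4 and 38.1 CPM in cKO mice, with none called. No marker gene was at or under 3 counts in all libraries of a group, and the part of these cells in the members' levels was not tested.

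The genes whose pattern was closest to each member were ranked by Pearson's r of log2 CPM over the 16 bulk libraries, among 13788 protein-coding genes, as a description of libraries that share 4 groups. For Gfap these were Prdx6, a peroxidase, Atp1b2, a subunit of the sodium pump, and Igfbp5, a binding protein of insulin-like growth factors, with r of 0.976, 0.973 and 0.971. For Vim they were Dhrs1, S100a6, a calcium-binding protein, and Cav1, the main coat protein of caveolae, with r of 0.988, 0.986 and 0.970. Between Gfap and Vim r was 0.933, which put Vim at rank 20 for Gfap. Nes was closest to Dhcr7, an enzyme of cholesterol synthesis, Tspan12 and Layn, with r of 0.843, 0.841 and 0.840, and had r of 0.518 with Vim and 0.429 with Gfap. Synm was closest to Anapc15, Anks1 and Impdh1, with r of 0.798, 0.776 and 0.760, in a gene that hardly varied among these libraries.

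Over the 12 TRAP libraries, where Input and IP libraries share their mice and the fraction sets most of the variation, the closest of 13149 protein-coding genes were others. Gfap was closest to Gstm1, a glutathione S-transferase, Emp2 and Abhd4, with r of 0.995, 0.994 and 0.994. Vim was closest to S100a4, a calcium-binding protein, Gm42674, which overlaps S100a4, and Capg, an actin-capping protein, with r of 0.995, 0.987 and 0.985. Nes was closest to Rrbp1, Plxnb2 and Dkk3, with r of 0.922, 0.883 and 0.837. Synm was closest to Arhgap32, Ppp1r9a and Nedd4l, with r of 0.997, 0.995 and 0.994, and ran opposite to Gfap with r of −0.949.

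Other intermediate filament genes were not called in bulk cortex. The list held the neuronal filament genes Ina, Nefl, Nefm, Nefh and Prph, the muscle gene Des, the lamins, simple keratins and lens genes, 14 in all. In bulk 10 of them were tested at each age and none was called, with a median log2 fold change of 0.01 at P17 and −0.02 at P24 beside medians of −0.004 and 0.0005 over all genes. In IP 2 of 10 were downregulated, the nuclear lamins Lmnb1 (−0.69 ± 0.15, SE, adjusted p = 0.00994) and Lmnb2 (−0.53 ± 0.13, SE, adjusted p = 0.0170), and the median of the list was −0.29. Of all genes 8.42% were downregulated there, and the Lmnb2 call was lost without Ctrl replicate 1 or cKO replicate 2 (adjusted p = 0.0715 and 0.0746) and in one fit of all TRAP libraries (0.0547). In Input none of 11 was called. Between IP and Input of Ctrl mice 7 of 10 were lower in IP and 1 was higher, with a median of −1.31, where 35.7% of all genes were lower and 35.3% higher.

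Genes that link filaments to junctions and membranes, such as those of plectin, dystroglycan and the dystrophin complex, made a list of 12. None of the 11 tested at P17 and none of the 12 tested at P24 was called in bulk, where the medians were −0.004 and 0.005. In IP 3 of 9 were downregulated, among them Dtna (−0.55 ± 0.09, SE, adjusted p = 0.00213) and Dmd (−0.34 ± 0.11, SE, adjusted p = 0.0437), which encode dystrobrevin and dystrophin of the complex that anchors the astrocyte endfoot. The Dmd call was lost without any single library other than Ctrl replicate 3 (adjusted p between 0.0536 and 0.177) and in one fit of all TRAP libraries (0.115). Of all genes 8.42% were downregulated in IP. The list had a median of −0.34 there, beside −0.39 for the 10 astrocyte markers and −0.01 over all genes. None of its 9 genes was called in Input.

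Among 13 chaperones, modifying enzymes and proteases of filaments, 2 of the 12 tested were upregulated in bulk at P24, where 1.26% of all genes were. These were Cryab, which encodes the small heat shock protein αB-crystallin that binds GFAP and vimentin (0.96 ± 0.20, SE, adjusted p = 0.0287), and Padi2, which encodes an enzyme that citrullinates such proteins (0.73 ± 0.07, SE, adjusted p = 2.39e-04). The Cryab call was lost without any single library other than cKO replicate 1 (adjusted p between 0.0683 and 0.101). At P17 none of 12 was called, with 0.29 for Cryab and 0.39 for Padi2. In IP 2 of 13 were upregulated, the small heat shock gene Hspb1 (3.67 ± 0.36, SE, adjusted p = 1.42e-04) and Cryab (1.55 ± 0.19, SE, adjusted p = 5.35e-04), and 2 were downregulated, the calpain gene Capn2 (−0.91 ± 0.13, SE, adjusted p = 0.00125) and Hspb8 (−0.46 ± 0.10, SE, adjusted p = 0.00783). These counts are close to the shares of all genes in IP, 11.6% upregulated and 8.42% downregulated, and the Hspb8 call was lost in one fit of all TRAP libraries (adjusted p = 0.0663). The median of the list was 0.07 at P24 in bulk and −0.11 in IP. Hspb1 had log2 fold changes of 0.42 in P24 bulk and 0.76 in Input, neither called. Its difference between IP and Input was 2.91 ± 0.54 (SE) and did not pass either (adjusted p = 0.0884).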

How the data were processed

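Cortex of cKO and Ctrl mice was measured by bulk RNA-Seq at P17 and P24 and by TRAP-Seq at P24, in 28 libraries. Reads were mapped to MM10 by RNA STAR within Galaxy. The authors deposited the raw counts of each Ensembl gene, one table per experiment, without normalization. The counter, strand setting and annotation are not given in the sources used here. The age of each bulk table is carried by the table's name. Symbols, positions and exon lengths come from GENCODE M21 (GRCm38), which matched 53237 of the 53342 identifiers, and promoter windows from RefSeq on GRCm38.p6.

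Tests on the counts used edgeR 4.0.16 (R 4.3.3): TMM factors, filterByExpr (minimum count 10, total 15, proportion 70%), and the two-sided quasi-likelihood test with Benjamini–Hochberg adjustment. Only the groups compared entered a fit. An SE is the log2 fold change over the square root of F. Single values were compared with exact permutation tests in scipy 1.17.1. Libraries held 8855488 to 27242445 counts on genes. Replicates of a group differed by more than counting error, with chi-square over its degrees of freedom from 2.59 to 78.6 in 36 pairs.

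IP and Input libraries of the same number are from the same mouse, but the main fits treated them as independent, and the mouse entered as a block only as an alternative. Across genes, their deviations from the group means were correlated at 0.057 to 0.072 in Ctrl and at −0.083 to 0.115 in cKO mice. For cKO and Ctrl, the deviations from the group means of same-numbered libraries were correlated across genes: at P17 every pair was over 0.1 (0.118 to 0.316), at P24 not (0.029 to 0.198), so that the block is given beside P17 results whose call it changes. The members and lists were chosen with earlier results of these data known. The genes named are the 4 members, called genes of 3 lists (at most 5 per list and comparison of cKO with Ctrl), the 3 closest protein-coding genes of each member with a mean log2 CPM (prior count 2) of at least 1, and Fam187a. Some results that this rule names are not reported here. Alternatives were DESeq2 1.42.0, the likelihood ratio test, RLE factors, library size alone, other filters, one fit of all libraries, the replicate block and leaving out libraries. The fits were tested on simulated data. Columns left unused: none.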

Additional observations from a re-analysis of the deposited data

Results flagged for a closer look

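The change of 2 genes in cKO mice differed between the ages by a test of the difference itself, the interaction of age and genotype in edgeR: Gfap by 1.48 and Vim by 2.81 on the log2 scale, larger at P24. The cKO and Ctrl mice did not overlap for Gfap at both ages and for Vim at P24. Age and count table cannot be told apart in these libraries.

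In 2 of the 20 sets of 4 bulk libraries that were checked (4 genes and the Vim to Gfap ratio in 4 groups), 1 library lay far from the other 3 for the spread of its group. Vim in P17 Ctrl replicate 1 was at 26.5 CPM, below 35.4 to 36.8 CPM in the others, and Synm in P24 Ctrl replicate 4 was at 31.4 CPM, below 34.7 to 34.8 CPM. Chance flags about 1 in 20 such sets. Vim of P24 cKO replicate 1 did not pass this check, since the other 3 cKO mice were themselves widely spread.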

How the results depend on the processing

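The number of the 4 members called stayed within 1.5 times its main value in P24 bulk, IP and both comparisons of IP with Input under every alternative run. At P17 it was 2 with the replicate block, in place of 1. In Input it was 2, in place of 1, with DESeq2, the likelihood ratio test, no filter beyond 1 count and one fit of all libraries, and 0 to 2 when leaving out a library. The age by genotype count was 1 to 2 in those fits. The P17 fall of the Vim to Gfap ratio, −0.61 on the log2 scale, was −0.68 to −0.58 without single libraries (exact permutation p = 0.0571, the smallest possible) and −0.61 with the replicate block by exact sign flips (p = 0.125, the smallest possible). The spread of Vim in P24 cKO was 27.4% to 69.7% and its share 19.1% to 25.3% without single cKO libraries, an alternative chosen after seeing the data.

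Values near 0 changed sign. Nes in IP was −0.027 with library size alone. Without single libraries it was −0.28 to 0.31 in IP, −0.030 to 0.33 in Input, −0.25 to 0.41 and −0.38 to 0.26 for IP against Input in Ctrl and cKO mice, and −0.44 to 0.23 for the fraction difference. Synm was −0.046 to 0.10 at P17, −0.15 to 0.0059 in IP and −0.072 to 0.27 for the fraction difference. None of these was called. Over all genes the calls moved beyond 1.5 times from 388 to between 216 and 950 (P24), 20 to 11 and 109 (P17), 4782 to 1684 and 6735 (IP), 26 to 4 and 137 (Input), 13526 to 8473 (cKO, IP against Input), 11 to 4 and 149 (age) and 15 to 2 and 340 (fraction); the cause was not tested. The block changed no other call of a member. Outside P17 and the same-mouse pairs the samples share only a number.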
